A study of Mus musculus with 4 samples.

Results

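The 33 mouse genes of the Mediator complex were followed across 4 microarrays of E14 embryonic stem cells (ES cells) in which the Polycomb gene Mtf2 had been targeted by RNA interference or left untargeted. Members were selected by gene symbol: each array feature whose symbol in the platform's annotation is Med followed by a number, with or without a final l, or is Cdk8, Cdk19 or Ccnc. The selection gave 65 features for 33 genes, out of 45220 features and 19087 named genes on the array. The complex was picked from the measured values, because Med16 had stood out in the contrast between Mtf2 RNAi and control. That contrast is therefore given as a description, with no test on the members, and supports nothing about the choice.

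All cultures received a pSuper plasmid with lipofectamine 2000, entered puromycin (1 mg/ml as labelled) 1 day later and were harvested after 2 days of selection, in what the submitters describe as 4 independent experiments. Controls were empty pSuper and pSuper with a luciferase hairpin. The RNAi plasmids were pSuper with Mtf2 hairpin 1 or Mtf2 hairpin 3. With 1 array per plasmid, each arm of the contrast is 2 arrays that also differ in plasmid. A signal on these arrays comes from the whole culture, in which fewer cells of a type and less RNA per cell cannot be told apart.

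Mediator is the large coactivator that carries signals from DNA-bound transcription factors to RNA polymerase II. Its head and middle modules contact the polymerase and the general factors, its tail is the main docking surface for activators, Med14 is the backbone that joins them, and a separable kinase module (Cdk8 or Cdk19, cyclin C, Med12 and Med13 or their paralogs) can bind the core and hinder its contact with polymerase. In ES cells Mediator and cohesin are known to occupy enhancers and promoters of active pluripotency genes. Med27 to Med30 are kept apart below because sources place them in the head or in the tail.

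Values are deposited array intensities scaled to a common 75th percentile, in scaled units, with values under 1 unit raised to a floor of 1. Of the 65 member features, 61 were above the floor on at least 1 array and entered the fit, and they represent all 33 genes. The 4 left out were 2 features of Med12l, 1 of Med13 and 1 of Med17. A gene is represented by its brightest feature. All 33 of these lay above the median feature (3.08 units), as did 12363 of all 16764 genes by the same rule. Because probes differ in brightness, levels are compared between arrays and not between genes.

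The targeted gene was lower with both hairpins on 3 of its 4 features. Mtf2 feature 23720 read 216 for empty pSuper and 243 for luciferase RNAi, against 105 with hairpin 1 and 112 with hairpin 3. The brightest Mtf2 feature, 321, read 175, 737, 501 and 335 in the same order, so the arms overlapped there. ES cell markers were present on all arrays, with summed levels over 9 measured markers of 7430 to 10268 units in the controls and 8089 to 9371 with Mtf2 RNAi. Dppa5a and Zfp42 were the brightest on each array and weigh most in these sums. Of the 9 markers, 5 read higher with Mtf2 RNAi and 4 lower. Nanog (0.86 log2) had separate arms in the higher direction, where 15.1% of all genes did. Esrrb (-0.29) and Utf1 (-0.40) had separate arms in the lower direction, where 18.3% did. Fibroblast markers read lower with Mtf2 RNAi. All 8 of them had a difference below 0, 4 with separate arms (Col1a1, Col1a2, Thy1 and Pdgfrb, where 18.3% of all genes were separate in that direction), and they summed to 98.98 to 119 units in the controls and 77.7 to 82.2 with Mtf2 RNAi. Thy1 and Pdgfrb were the brightest fibroblast markers on each array and weigh most in these sums. The matrix genes Dcn, Lum and Postn lay between 1.00 and 1.83 units throughout. The 5 neural markers summed to 293 and 179 units in the controls against 151 and 165, with Tubb3 (-0.64) and Ncam1 (-0.82) lower and Neurog1 (0.89) higher with separate arms. Pax6 (-0.22) and Sox1 (0.45) had overlapping arms. Tubb3 was the brightest neural marker on each array (202 and 119 units in the controls against 90.4 and 110) and weighs most in the neural sums. The 5 endoderm markers summed to 39.7 and 37.5 units in the controls against 38.0 and 44.4, and 3 read higher and 2 lower. Only Gata4 (-1.27) among them had separate arms, at 4.92 and 3.28 units against 2.76 with hairpin 1 and the floor with hairpin 3. The part of fibroblast, neural or endoderm cells in the Mediator values was not tested. The empty-vector array held 1681 positions whose neighbours deviated by over 0.5 log2 from the 4-array median, against 8 to 23 on the others.

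**Figure D1:**
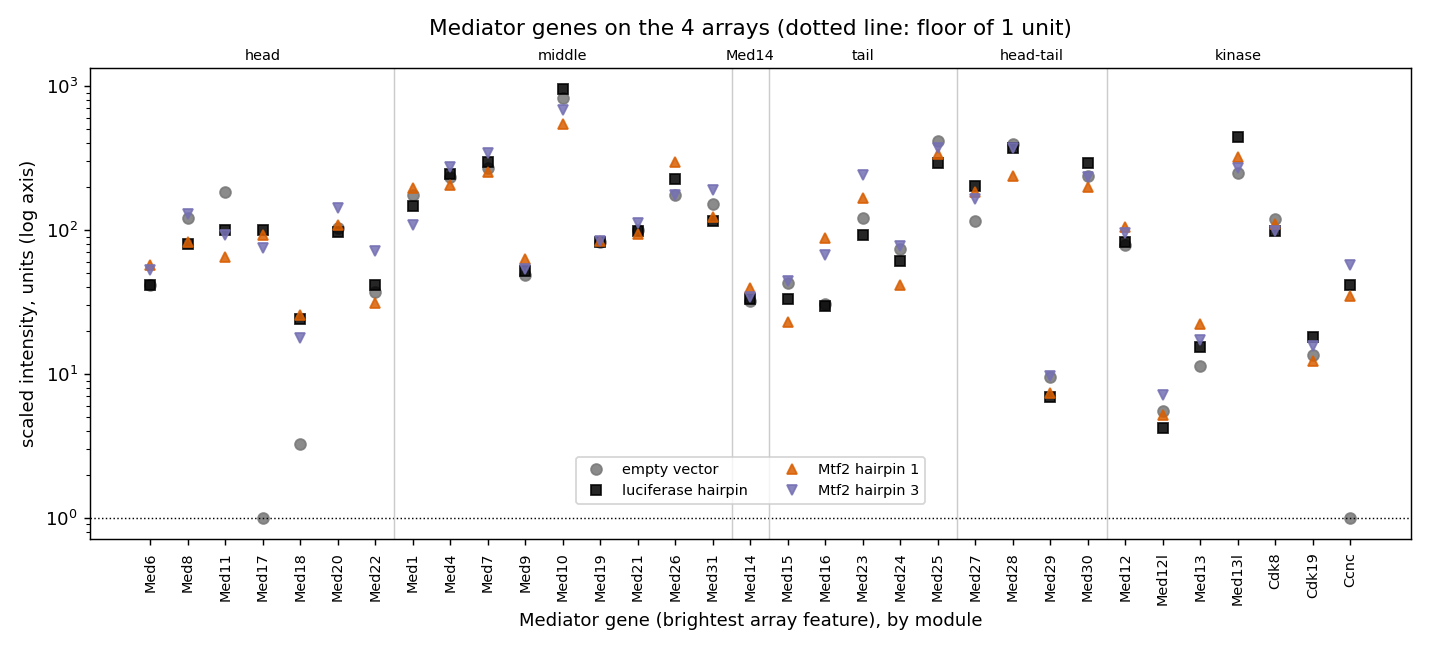
Scaled intensity (log axis) of the brightest feature of each of the 33 Mediator genes on the 4 arrays, by module, with 1 symbol per array. For most genes the 4 symbols lie close together. The Med16 values with both Mtf2 hairpins (88.2 and 66.7) lie above both controls (30.8 and 29.6). Med17, Med18 and Ccnc stand far lower on the empty-vector array than on the other 3.

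Between the arms, 22 of 33 Mediator genes read higher with Mtf2 RNAi and 11 lower, where 49.3% of all 16764 genes read higher. The median difference was 0.07 log2, from -0.81 for Med11 to 3.06 for Med17, against -0.01 over all genes. The size of this split depended on the scaling, since 19 genes read higher after quantile normalization and 17 after scaling to the median of features above the floor. Both Mtf2 RNAi arrays lay above both controls for 9 genes (Med6, Med9, Med12, Med13, Med14, Med16, Med19, Med20 and Med23), where 15.1% of all genes did so. Both lay below for 3 genes (Med10, Med11 and Med30), where 18.3% of all genes did so. For 8 of the 33 genes the difference between the arms was larger than both gaps within the arms, against 21.0% of all genes. Across the whole array limma's test called 0 of 35102 features, or 0%, and its smallest Benjamini-Hochberg adjusted p was 0.868. Before adjustment, 1467 features (4.18%) had p under 0.05.

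**Figure D2:**
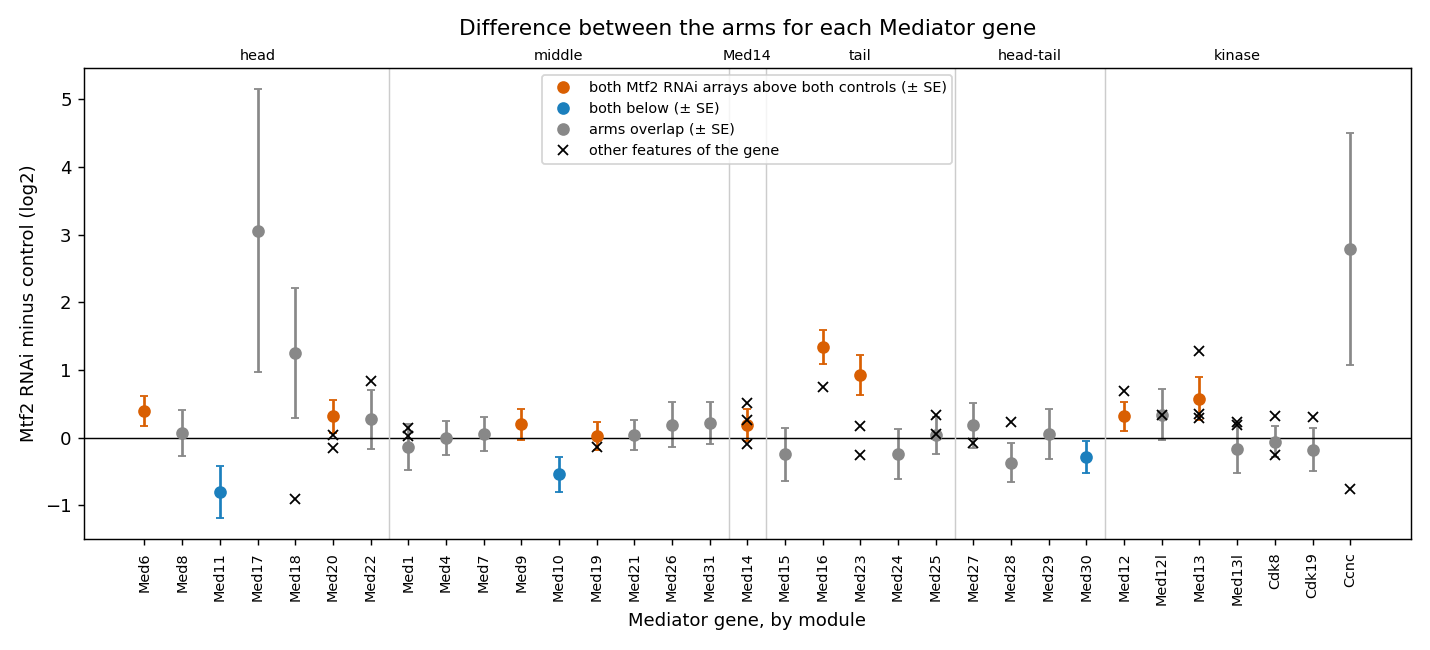
Mtf2 RNAi minus control (log2, vertical axis) for the 33 Mediator genes by module, as the brightest feature (circle, ± SE of the limma fit) and the other features of the gene (crosses). Circles are coloured by whether the 2 arrays of each arm overlap. Med16 at 1.34 and Med23 at 0.93 are the highest genes with separate arms, and the larger values of Med17 and Ccnc have overlapping arms and wide errors.

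The tail module held the 2 genes with the highest differences among those with separate arms. Its other 3 genes did not separate, and the median of the module, 0.03 log2, was -0.07 after quantile normalization. Med16, a tail subunit that forms a submodule with Med23 and Med24, read 30.8 for empty pSuper and 29.6 for luciferase RNAi on feature 1418, where hairpin 1 gave 88.2 and hairpin 3 gave 66.7. Both hairpin arrays were high and both controls were low and nearly equal. The difference was 1.34 log2 (SE 0.25), or 2.54-fold. Its other feature, 40201, read 23.8, 30.1, 45.0 and 44.9 in the same order, again with no overlap, a difference of 0.75 (SE 0.25) and a fold of 1.68.

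Med23, the tail subunit known as the partner of the Ets factor Elk1, read 121 and 92.4 in the controls, and 168 and 242 with hairpins 1 and 3. Its arms were separate, at 0.93 log2 (SE 0.29, 1.90-fold), and hairpin 3 was the higher of the hairpin arrays. A further Med23 feature, 9287, had separate arms in the lower direction, at 69.04 and 52.2 in the controls against 48.8 and 51.8 (-0.26 log2, SE 0.25). Its remaining feature, 37625, was at the floor on 3 arrays (0.18 log2). The mean over the features of the gene differed by 0.28. Med24, the partner of Med16 and Med23, had overlapping arms. It read 74.2 and 60.4 in the controls, 41.2 with hairpin 1 and 77.7 with hairpin 3, so the hairpins lay on either side of both controls. Med15, the tail subunit bound by SREBP and Smad proteins, had the same order of arrays as Med24: 42.8 and 33.2 in the controls, 23.0 with hairpin 1 and 44.1 with hairpin 3. Med25, the target of the VP16 activation domain and of some Ets factors, had overlapping arms on all 3 of its features, with differences of 0.03 to 0.33.

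Of the 7 head genes, 6 read higher and 1 lower under each of the 4 scalings, but 2 of the highest values rested on the empty-vector array. Med6, a conserved head subunit that contacts the middle module, read 41.6 and 41.7 in the controls, 57.2 with hairpin 1 and 52.5 with hairpin 3. The controls were nearly equal and both hairpins were above them, at 0.40 log2 (SE 0.22). Med20, which pairs with Med18 at the movable jaw of the head, read 104 and 97.6 in the controls against 109 and 143, a difference of 0.31 (SE 0.24) that its other features did not share (0.04 and -0.15). Med11, which pairs with Med22, was the lowest gene of the complex. It read 183 for empty pSuper, 99.3 for luciferase RNAi, 64.5 with hairpin 1 and 92.1 with hairpin 3, or -0.81 log2 (SE 0.38). The arms did not overlap, yet hairpin 3 was close to the luciferase hairpin, and without the empty vector the difference was -0.36.

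Med17, the central scaffold of the head, had the largest difference of all members, 3.06 log2 (SE 2.09), from a single array, and its size is set by the floor. It was at the floor with the empty vector and read 100 for luciferase RNAi, 92.9 with hairpin 1 and 75.1 with hairpin 3, so both hairpins lay below the other control. Without the empty-vector array the difference was -0.26. Med18 read 3.28 with the empty vector against 24.3, 25.6 and 17.7 on the other arrays (1.25 log2, SE 0.96), and without that array it was -0.19. Its other feature read 19.0, 21.4, 5.22 and 22.1, so there hairpin 1 was the low array. Med22 read 36.9 and 41.2 in the controls, 31.2 with hairpin 1 and 71.2 with hairpin 3, while its other feature had hairpin 1 high (9.99, 10.7, 27.8 and 12.2). The features of Med22 thus put the high value on different hairpins. Med8 stood at 0.07.

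The middle module, which links the head to the tail through Med14, had small differences in both directions. Its 9 genes ranged from -0.54 to 0.22 log2 with a median of 0.04, a sign that turned under quantile normalization (-0.003) and under scaling to the median (-0.03). None of the 9 was 2-fold apart between the controls, where 9.96% of all genes were, or between the hairpins, where 7.68% were. Med10, one of the conserved middle subunits, read 826 and 954 in the controls, 549 with hairpin 1 and 681 with hairpin 3. It was lower with both hairpins, at -0.54 log2 (SE 0.26), or 0.689 of control. Med19, a subunit known from its contact with the repressor REST, was nearly flat, at 82.9, 82.1, 84.2 and 83.5. Its arms were separate by a difference of only 0.02 log2, which shows how small a gap can meet that criterion, and they lay the other way after quantile normalization. Med9 read 49.0 and 52.0 in the controls against 62.7 and 53.6 (0.20, SE 0.23). Med1, the subunit bound by nuclear receptors, and Med26, which recruits elongation factors, both had hairpin 1 high. Med1 read 175 and 147 in the controls, 196 with hairpin 1 and 109 with hairpin 3. Med26 read 174 and 226 in the controls, 295 with hairpin 1 and 174 with hairpin 3. Med4, Med7, Med21 and Med31 had overlapping arms, with differences of -0.004 to 0.22.

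Med14, the backbone of the complex, read 31.9 and 33.2 in the controls, 39.8 with hairpin 1 and 34.4 with hairpin 3. Its arms were separate at 0.18 log2 (SE 0.24), and its other 3 features ranged from -0.10 to 0.51, the last of these close to the floor. Among the subunits between head and tail, Med28 read 394 and 369 in the controls, 237 with hairpin 1 and 369 with hairpin 3 (-0.37, SE 0.29). Only hairpin 1 was low, and hairpin 3 equalled the luciferase control. Med30 read 239 and 291 in the controls against 200 and 233, with separate arms at -0.29 (SE 0.24). Med27 and Med29 stood at 0.18 and 0.05.

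In the kinase module, Med12 and Med13 read higher on every feature that was measured. Med12, which activates the kinase through cyclin C, read 79.1 and 82.2 in the controls, 105 with hairpin 1 and 95.8 with hairpin 3, at 0.32 log2 (SE 0.21). Its second feature read 9.61 and 6.85 in the controls against 10.5 and 16.4, and was separate as well (0.70, SE 0.39). Med13, the subunit that ties the kinase to the core, read 11.4 and 15.3 in the controls, 22.4 with hairpin 1 and 17.3 with hairpin 3 (0.57, SE 0.32). The other 3 measured Med13 features differed by 0.29, 0.35 and 1.28 with overlapping arms. The second of these was at the floor on 3 arrays, and the last was low with the empty vector alone (3.31 against 14.2 to 23.4). The paralogs had overlapping arms. Med12l stood at 0.34 on both measured features. Its brighter one read 4.21 to 7.09 units. The other was at the floor with the empty vector and close to it on the other arrays, at 1.34 to 1.66 units. Med13l stood at -0.17 on its brightest feature and at 0.18 and 0.23 on the others.

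The kinases themselves did not separate on their brightest features. Cdk8 read 120 and 99.2 in the controls, 111 with hairpin 1 and 98.6 with hairpin 3 (-0.06, SE 0.23). Its feature 44210 had separate arms in the lower direction (6.39 and 7.01 against 4.999 and 6.34, -0.25 log2), and feature 34538, at the floor on 3 arrays, stood at 0.32. Its paralog Cdk19 stood at -0.18 on a feature from a full-length cDNA and at 0.31, with separate arms, on a RefSeq feature. Ccnc, the cyclin of the module, gave opposite values on its 2 features. Feature 15033 was at the floor with the empty vector and read 41.7, 34.9 and 56.8 on the other arrays, a difference of 2.79 (SE 1.72) that rests on the low array and on the floor. Feature 13881 read 19.1 and 27.9 in the controls against 13.5 and 13.9, with separate arms at -0.75 (SE 0.31).

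Mtf2 is known to bind DNA rich in CG dinucleotides and to bring PRC2, the complex that methylates histone H3 at lysine 27, to such promoters. The RefSeq promoter sequences (mouse build GRCm38.p6, 250 bases before to 50 after each annotated start) covered 28 of the 33 genes with 32 start sites. The 4 genes shown are those with separate arms and a difference of at least 0.4 log2 for which the table had a sequence (Med23 had none), and Med10 has 2 annotated starts. They are shown to let the CG content of members that read higher be seen beside that of members that read lower, and capitals mark each CG. Med16 lies at chr10:79908889-79909188 (minus strand), Med13 at chr11:86357547-86357846 (minus strand), Med11 at chr11:70451668-70451967 (plus strand), and Med10 at chr13:69802120-69802419 and chr13:69809632-69809931 (plus strand).
Med16: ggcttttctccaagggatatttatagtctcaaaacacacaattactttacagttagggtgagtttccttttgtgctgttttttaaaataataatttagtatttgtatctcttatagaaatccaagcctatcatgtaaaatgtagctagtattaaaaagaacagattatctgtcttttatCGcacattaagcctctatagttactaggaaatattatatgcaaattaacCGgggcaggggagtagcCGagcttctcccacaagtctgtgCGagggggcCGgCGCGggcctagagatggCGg
Med13: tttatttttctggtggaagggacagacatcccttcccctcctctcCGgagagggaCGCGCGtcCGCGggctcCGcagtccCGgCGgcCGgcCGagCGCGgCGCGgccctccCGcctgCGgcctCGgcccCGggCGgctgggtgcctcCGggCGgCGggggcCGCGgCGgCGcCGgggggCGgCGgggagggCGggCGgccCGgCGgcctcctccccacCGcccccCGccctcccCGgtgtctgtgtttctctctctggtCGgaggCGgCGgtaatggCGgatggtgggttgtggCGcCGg
Med11: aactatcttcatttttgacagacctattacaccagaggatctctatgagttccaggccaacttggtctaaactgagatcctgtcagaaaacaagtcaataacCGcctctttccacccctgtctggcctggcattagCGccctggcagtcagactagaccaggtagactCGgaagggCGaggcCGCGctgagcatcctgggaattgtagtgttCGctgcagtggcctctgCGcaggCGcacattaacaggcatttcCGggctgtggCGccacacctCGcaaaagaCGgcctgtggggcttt
Med10 start 1: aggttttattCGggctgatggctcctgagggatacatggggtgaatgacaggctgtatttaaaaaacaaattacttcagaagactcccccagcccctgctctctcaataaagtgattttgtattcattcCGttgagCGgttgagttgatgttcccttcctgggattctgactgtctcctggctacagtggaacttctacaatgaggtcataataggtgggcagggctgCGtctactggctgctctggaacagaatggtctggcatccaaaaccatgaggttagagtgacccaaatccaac
Med10 start 2: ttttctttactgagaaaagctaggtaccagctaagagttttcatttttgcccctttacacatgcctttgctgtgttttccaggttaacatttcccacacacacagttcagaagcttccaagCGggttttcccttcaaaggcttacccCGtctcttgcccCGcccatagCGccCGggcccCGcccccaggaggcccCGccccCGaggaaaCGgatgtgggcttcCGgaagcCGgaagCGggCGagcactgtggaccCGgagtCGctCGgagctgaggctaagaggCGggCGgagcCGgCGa

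The Med16 window held 8 CG dinucleotides and the Med13 window 43, so the members that read higher differed widely. The Med11 window held 13, and the Med10 windows held 4 and 20. Over the 32 member windows the median was 20, from 3 (a Med27 start) to 61 (Med13l), against a median of 7 over all 32851 RefSeq promoters, whose upper quartile began at 20. The ETS-type motif CCGGAAG, read on both strands, was found in 9 of the 32 windows (28.1%), against 8.86% of all promoters. These windows belong to 8 of the 28 genes: Med4, Med6, Med10, Med14, Med15, Med17, Med18 and Med19. The windows of Med15 overlap each other, as do those of Med7, so the windows are not all independent. The GC box GGGCGG was found in 62.5% against 35.7%. The TATA motif TATAAA was found in 3 windows (9.38% against 13.6%), those of Med7, Med16 and Med28. The E-box CACGTG was found in 12.5% against 7.15%. No motif holds another, but the ETS-type, GC box and E-box letters each contain a CG, so their shares are not independent of the CG counts, and a match describes the window only.

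Since both hairpins target Mtf2, the gap between them shows the spread within the RNAi arm. Hairpin 3 read above hairpin 1 for 19 of 33 Mediator genes, where it did for 46.5% of all genes, with a median of 0.26 log2 against 0.00 over all genes, and a median absolute gap of 0.39 against 0.32. Of the 4 arrays, hairpin 3 was the highest for 13 members and the lowest for 3, against 3752 and 3779 of 16764 genes. Only Med22, at 1.19 log2, was at least 2-fold apart, where 7.68% of all genes were. Med15 (0.94) and Med24 (0.91) followed, both tail genes in which hairpin 1 was the lowest array and hairpin 3 the highest. That order was not particular to the tail, since Med22 of the head and Med4, Med7 and Med21 of the middle module had it too. The median over Mediator genes of the difference from control was 0.21 without hairpin 1 and 0.02 without hairpin 3.

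**Figure D3:**
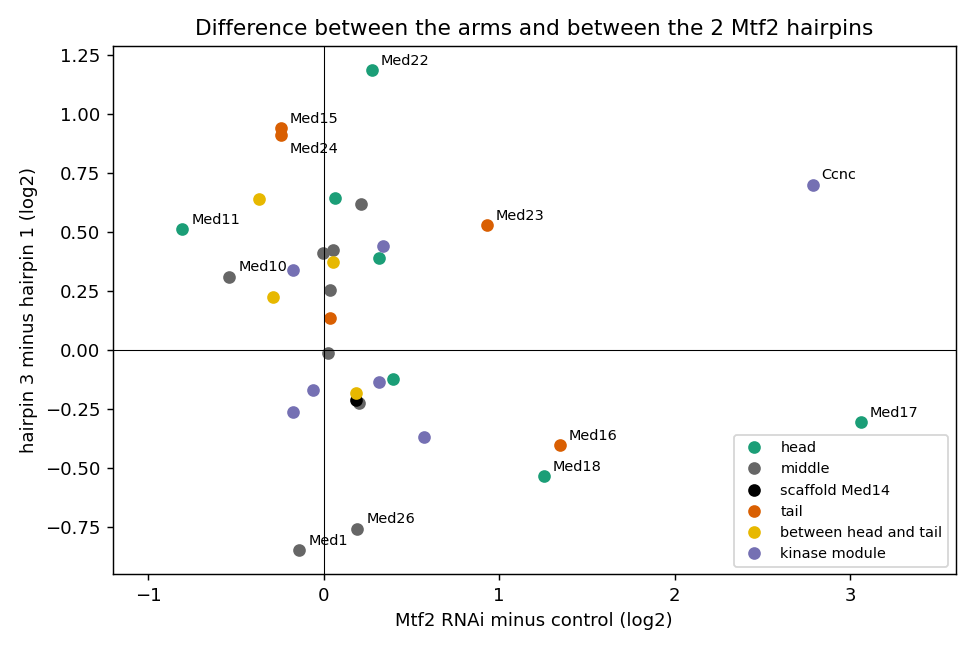
Difference between the arms (log2, horizontal axis) against the difference of hairpin 3 from hairpin 1 (log2, vertical axis) for the 33 Mediator genes, coloured by module. Both axes use the Mtf2 RNAi arrays. Med16 (1.34, -0.40) and Med23 (0.93, 0.53) lie far to the right with a hairpin gap smaller than their arm difference, while Med15 and Med24 lie high and slightly left of 0.

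The control plasmids differed by a median absolute 0.30 log2 over Mediator genes, against 0.34 over all genes. At least 2-fold apart were Med17 (6.65), Ccnc (5.38) and Med18 (2.89), all low with the empty vector, where 9.96% of all genes were that far apart. These lie in array columns 78, 73 and 75 of 85. Of the 16 measured Mediator features in columns 70 to 85, 4 read at least 2-fold below the mean of the other arrays with the empty vector, those of Med17 (-6.47), Ccnc (-5.44), Med18 (-2.76) and Med13 (-2.43, feature 8826). None of the 45 in columns 1 to 69 did. Over all features the shares were 21.3% in columns 70 to 85 and 1.12% elsewhere. Med16 feature 40201 lies in column 81, where the empty vector read 0.73 log2 below the mean of the others. Med16 feature 1418, in column 58, read 0.86 below, and its luciferase control was as low as the empty vector. For the 25 genes whose brightest feature lies in columns 1 to 69, 16 read higher and 9 lower with a median difference of 0.05 log2, where 6509 of 13689 genes in those columns read higher with a median of -0.02. All 12 genes with separate arms lie in these columns, so their counts could not change. This restriction was chosen after seeing the data.

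**Figure D4:**
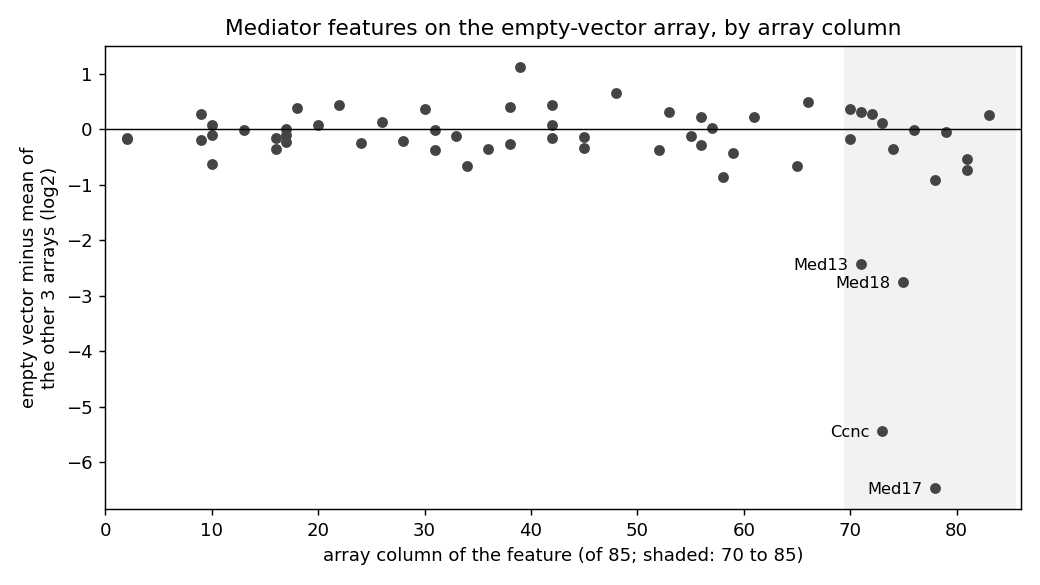
Empty vector minus the mean of the other 3 arrays (log2, vertical axis) for the 61 measured Mediator features, by array column (horizontal axis, columns 70 to 85 shaded). The 4 named features in the shaded columns lie between -6.47 and -2.43, and the features in columns 1 to 69 lie between -0.86 and 1.12.

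Genes with several features show how far the probes of a gene agreed. Of the 18 Mediator genes with at least 2 measured features, 6 had the same sign on all of them (Med12, Med12l, Med13, Med16, Med22 and Med25), or 33.3%, against 40.1% of 6861 genes on the array. The median range of the difference within a gene was 0.52 log2 both for Mediator and for all genes. Of these 18, only Med12 and Med16 had separate arms in the same direction on all of their measured features. The share of all genes that did so was not computed, so this count has no background to be read against. Med16 was also the gene that had drawn attention to the complex. Counted by feature, 13 of 61 were separate in the higher direction, where 14.7% of all features were, and 6 in the lower direction, where 17.5% were.

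Genes for the partners of Mediator in transcription had medians near 0. Their counts with separate arms are to be read against 15.1% of all genes for the higher direction and 18.3% for the lower. Of 13 RNA polymerase II subunits, 5 read higher and 8 lower (median -0.04), none had separate arms in the higher direction and 2 did in the lower: Polr2h (-0.48, SE 0.31) and Polr2c (-0.33, SE 0.25). Of 17 general factors measured of 18 listed, 8 read higher and 9 lower (median -0.001), and 5 and 2 had separate arms. Among them the TFIIE subunit Gtf2e2 read 1282 and 1061 in the controls against 2282 and 1723 (0.77, SE 0.30), and the TFIIH assembly factor Mnat1 stood at 0.54 (SE 0.31). The other TFIIE subunit, Gtf2e1, named after its values were seen, read 250.1 and 183 in the controls against 149 and 150.4 (-0.51, SE 0.25), the opposite direction. With the mean over features, 3 and 4 general factors had separate arms and the median was 0.11. Of 15 elongation genes, 11 read higher and 4 lower (median 0.02). Only Ccnt2 (0.15, SE 0.22), a cyclin of the elongation kinase P-TEFb, and Nelfb (-0.37, SE 0.30), a pausing factor, had separate arms. With the mean over features, 0 and 3 elongation genes did.

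Cohesin genes, whose products act with Mediator at ES cell enhancers, had separate arms in both directions. Of 10, 5 were separate in the higher direction (Smc3, Stag2, Nipbl, Stag1 and Rad21), where 15.1% of all genes were. In the lower direction 3 were separate (Pds5b, Pds5a and Smc1a), where 18.3% of all genes were. The median was 0.12. With the mean over the features of each gene these counts were 2 and 1 and the median was 0.03. The loader Nipbl read 39.8 and 41.7 in the controls, 63.1 with hairpin 1 and 46.2 with hairpin 3. Stag2, a cohesin subunit, read 75.4 and 75.6 in the controls, 169 with hairpin 1 and 88.4 with hairpin 3 (0.70, SE 0.36). The ring subunit Smc3 had the largest value (1.39, SE 0.80), with the empty vector at 61.3 and the other arrays at 340, 396 and 359, so the difference came from the empty vector. No member of these lists passed limma's test.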

How the data were processed

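RNA of 4 cultures of E14 ES cells was labelled with Cy3 and hybridised to 1-colour arrays, per the labels' protocols. The authors deposited 1 intensity per feature on a linear scale. Some values lie below 0 (down to -1.8), as background subtraction can give. The scanner and any background or normalization step were not given in the sources used here. Intensities were multiplied by 1 factor per array to bring the 75th percentile to 22.98 units, raised to at least 1 and put on a log2 scale. This left 10118 of the 45220 features at 1 unit everywhere, and they were not tested. The remaining 35102 were fitted in R 4.3.3 with limma 3.58.1 (lmFit and eBayes, trend on mean level), and p-values were adjusted over all of them by Benjamini-Hochberg (threshold 0.05). The procedure was tested on simulated data. The number of arrays limits the precision. The spread behind each p-value may be technical, and it also holds any difference between the plasmids and cultures within an arm.

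Features were named through the platform annotation of 2016, which gives 33653 of them 1 symbol. Arrays were read as 532 rows of 85 columns. A position was called defective where its neighbours in a square of 7 by 7 deviated by a median of over 0.5 log2. Values on all arrays were given by a fixed rule: all Med16 features, genes with separate arms and a difference of at least 0.4 log2, the 3 largest gaps between the hairpins and between the controls, and the largest difference in each module. Others were added to describe a module after their values were seen. The members, the lists and these rules were chosen with earlier results of these data known. Alternatives covered the scaling, floor, filter, representative feature, defective positions, variance model and each array.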

Additional observations from a re-analysis of the deposited data

How the results depend on the processing

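No paired analysis was possible because each plasmid has 1 array and the labels number only the hairpins. The count of features past the limma threshold stayed at 0 under 14 of 15 alternatives. It was 36 when features at the floor on all arrays were kept, none of them a Mediator feature and all at or below 2.13 units, and the cause was not tested. The Mediator median stayed between 0.003 and 0.09 log2 under the other scalings, floors, filters and variance models, and between 0.0249 and 0.21 when 1 array was left out. The number of members above both controls was 6 to 9 under the former, where 11.6% to 16.5% of all genes were. The count of 6 and the share of 11.6% both came with scaling to the median of features above the floor. With 1 array left out the number above both controls was 12 to 20, where an arm of 1 array separates more easily and 28.1% to 32.8% of all genes did. The number below both controls was 5 after quantile normalization (20.0% of all genes) and 6 to 11 with 1 array left out (31.5% to 38.9% of all genes). With the mean over features for each gene, 0 members were 2-fold apart between the hairpins, which follows from averaging the opposite features of Med22. Under the 3 other scalings 6 to 8 of the 9 genes remained above both controls on their brightest feature. Med6, Med12, Med13, Med16, Med20 and Med23 were among them under each. Med17 reversed to -0.26 with defective positions left out. With 1 array left out, the difference ranged from -0.26 to 6.38 for Med17, from -0.19 to 2.70 for Med18, from -0.70 to 0.21 for Med24, from -0.71 to 0.23 for Med15 and from -0.32 to 0.87 for Med22. A lone array in an arm was assumed to vary like those of the other arm. Of the 61 member features, 9 were at the floor on some array, and those of Med17, Ccnc and Med12l (feature 19546) only on the empty-vector array.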
